A study of Mus musculus with 10 samples.

Results

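The genes described here are 32 lysosomal enzyme and membrane genes, followed in mouse brain 24 h after an experimental stroke. They were chosen by symbol: a probe set counted for a gene where the platform annotation gave it exactly 1 gene symbol equal to a listed one, and where a gene had several, the brightest on average across the 10 arrays was kept. Of the 32 genes, 31 were measured in this way among 18193 genes in all. Cd63 was not analysed here. By role they are 9 proteases, 8 glycosidases, 6 hydrolases of lipids and sulfate esters, 3 cofactors and carriers of the lumen, and 5 membrane proteins.

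Total RNA came from one brain hemisphere of male mice killed 24 h after middle cerebral artery occlusion (MCAO, which blocks the vessel that feeds much of the hemisphere) or after sham surgery, and was hybridised to Affymetrix arrays. The operated hemisphere was taken from sham mice too. The arrays fall into Hsp72Tg mice after MCAO (3 arrays), wild-type (WT) mice after MCAO (3), Hsp72Tg mice after sham surgery (2) and WT mice after sham surgery (2). Hsp72Tg mice overexpress Hsp72, the inducible heat shock protein. The labels give no age, strain, promoter or construct of the transgene, and they do not say whether RNA of several mice was pooled, so p-values measure the spread between these samples. The study asks how Hsp72 bears on the response of the brain, and of astrocytes in particular, to stroke.

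Lysosomes are acid compartments in which acid hydrolases of many kinds break down proteins, glycans, lipids and nucleic acids that arrive by endocytosis, phagocytosis or autophagy. Their membrane proteins keep the lumen acid, shield the membrane from the enzymes and carry cholesterol, ions and amino acids out. In brain, loss of single lysosomal enzymes causes storage disease of neurons and glia, and microglia and macrophages that clear dead cells hold many lysosomes. Many lysosomal genes are transcribed under TFEB and its relatives TFE3 and MITF, factors that bind DNA at sites with the core CACGTG.

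That core was therefore looked for in the promoters of the measured genes, taken from RefSeq (GRCm38.p6) as the 250 bases before and the 50 bases after each start site. A window was on hand for 28 of the 31 measured genes, with none for Asah1, Ctsh or Npc1. CACGTG, which reads the same on both strands, stood in a window of 11 of the 28 genes (39.3%), against 10.2% of the 14452 genes measured here that have a window and 7.15% of all 32851 windows. The longer TCACGTG, searched on both strands and always containing CACGTG, stood in 9 of the 28 (32.1%), against 5.8% of the genes measured here. The 11 genes were Ctsa, Ctsd, Ctsf, Ctsl, Lgmn, Gla, Glb1, Gaa, Arsa, Lamp1 and Mcoln1. Of 47 other lysosome genes with a window, 11 held CACGTG (23.4%). A match is a description of the sequence, not a bound site.

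The first 4 windows below hold the motif, in capitals, and belong to the membrane gene with the most matches and to enzymes whose values are described below. The last is that of Ctsc, the gene whose change after MCAO was the farthest from 0 of the 31, in which the 6 letters do not occur. Lamp1 lies at chr8:13158911-13159210 on the plus strand, with matches starting at -61, -45, -28 and -15 from the start site. Gla lies at chrX:134600956-134601255 on the minus strand with matches at -227 and -194, Lgmn at chr12:102439043-102439342 on the minus strand with 1 at -49, and Ctsl at chr13:64370471-64370770 on the minus strand with 1 at -236. The printed Lgmn window, the one of 2 that holds a match, lies inside the annotated gene (chr12:102394082-102439728). The other, chr12:102439679-102439978, spans the upstream end of the gene and holds no match. The Ctsl window also lies inside its gene (chr13:64361890-64370772). So does the matching window of Ctsa (chr2:164833523-164833822, in a gene at chr2:164832872-164841032). Ctsc lies at chr7:88277835-88278134 on the plus strand.
Lamp1: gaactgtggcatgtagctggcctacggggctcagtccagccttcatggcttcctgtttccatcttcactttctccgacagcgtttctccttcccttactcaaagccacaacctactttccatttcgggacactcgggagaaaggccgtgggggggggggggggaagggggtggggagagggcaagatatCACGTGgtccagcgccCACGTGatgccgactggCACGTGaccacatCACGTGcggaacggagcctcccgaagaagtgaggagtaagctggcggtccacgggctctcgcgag
Gla: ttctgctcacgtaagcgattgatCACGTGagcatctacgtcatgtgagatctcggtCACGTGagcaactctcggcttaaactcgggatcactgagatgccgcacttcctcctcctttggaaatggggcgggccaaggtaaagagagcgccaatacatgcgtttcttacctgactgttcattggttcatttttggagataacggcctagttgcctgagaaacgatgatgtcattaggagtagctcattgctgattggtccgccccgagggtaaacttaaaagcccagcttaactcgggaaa
Lgmn: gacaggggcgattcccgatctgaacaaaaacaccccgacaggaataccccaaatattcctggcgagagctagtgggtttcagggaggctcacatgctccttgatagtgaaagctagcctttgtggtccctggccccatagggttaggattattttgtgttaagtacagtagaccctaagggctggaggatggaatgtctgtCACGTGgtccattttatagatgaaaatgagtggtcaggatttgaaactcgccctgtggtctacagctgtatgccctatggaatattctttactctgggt
Ctsl: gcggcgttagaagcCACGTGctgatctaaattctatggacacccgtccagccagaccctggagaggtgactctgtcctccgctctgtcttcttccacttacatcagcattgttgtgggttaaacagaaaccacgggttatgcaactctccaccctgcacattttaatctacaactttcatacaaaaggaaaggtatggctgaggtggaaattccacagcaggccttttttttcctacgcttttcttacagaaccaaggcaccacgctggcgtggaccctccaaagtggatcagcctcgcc
Ctsc: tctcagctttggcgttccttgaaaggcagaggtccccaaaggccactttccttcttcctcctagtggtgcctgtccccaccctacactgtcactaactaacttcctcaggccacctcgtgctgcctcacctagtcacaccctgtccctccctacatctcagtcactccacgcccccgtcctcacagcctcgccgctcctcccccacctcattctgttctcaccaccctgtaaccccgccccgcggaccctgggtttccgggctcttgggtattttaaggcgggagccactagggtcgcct

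Values are on the log2 scale of the RMA method, so a difference of 1 is a doubling of signal, and a level is read only against the same probe set on other arrays. The lowest value of any of the 31 genes was 6.94 (Gla in WT sham 1), while the lower quartile of each array over named probe sets lay between 5.40 and 5.47. As a rough check of tissue, 8 neuronal markers averaged 12.06 to 12.41 in Hsp72Tg MCAO and 12.17 to 12.34 in WT MCAO. They averaged 12.37 to 12.49 in Hsp72Tg sham and 12.38 to 12.45 in WT sham, and 4 liver markers between 5.13 and 5.37 on every array. Neuronal and liver markers are different probe sets, and they cannot tell a hemisphere from other brain tissue. Some arrays stood apart from their group. On the first principal component, with 50.3% of the variance, Hsp72Tg MCAO 1 lay at -12.87, the other MCAO arrays between 11.7 and 32.3, and the sham arrays between -23.71 and -20.66. WT sham 1 carried cerebellar granule neuron markers at a mean of 8.99, against 7.06 to 7.41 on the other arrays. Hspa1b, which encodes Hsp72, averaged 9.14 ± 0.02 in Hsp72Tg sham and 9.43 ± 0.07 in WT sham (SD, n = 2 each). Hspa1a, which encodes it too, averaged 8.41 ± 0.18 and 8.50 ± 0.06 in the same groups. After MCAO, Hspa1b averaged 13.03 ± 0.95 in Hsp72Tg and 12.47 ± 0.54 in WT (SD, n = 3 each). Hspa1a averaged 11.99 ± 1.31 and 11.15 ± 0.48 there. Without the sequence of the transgene, this checks neither genotype label.

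MCAO was first compared with sham surgery over both genotypes (6 arrays against 4), which asks what the stroke did to these genes. None of the 31 passed an adjusted p under 0.05 (limma, Benjamini-Hochberg over all 18193 genes), where 1.46% of all genes passed. At an unadjusted p under 0.05 there were 9 of 31, or 29.0%, with 6 higher and 3 lower, against 19.1% of all genes. The changes farthest from 0 belonged to the protease Ctsc, followed by Ctsl, the glycosidase Gusb and the membrane protein Lamp2. The change was above 0 for 18 of the 31 genes (58.1%), against 42.5% of all genes, and its median was 0.02, against -0.03 over all genes. For 23 of the 31 genes the whole 95% interval of the change lay between -0.5 and 0.5. In a hemisphere, more cells of a kind and more RNA per cell cannot be told apart.

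**Figure D1:**
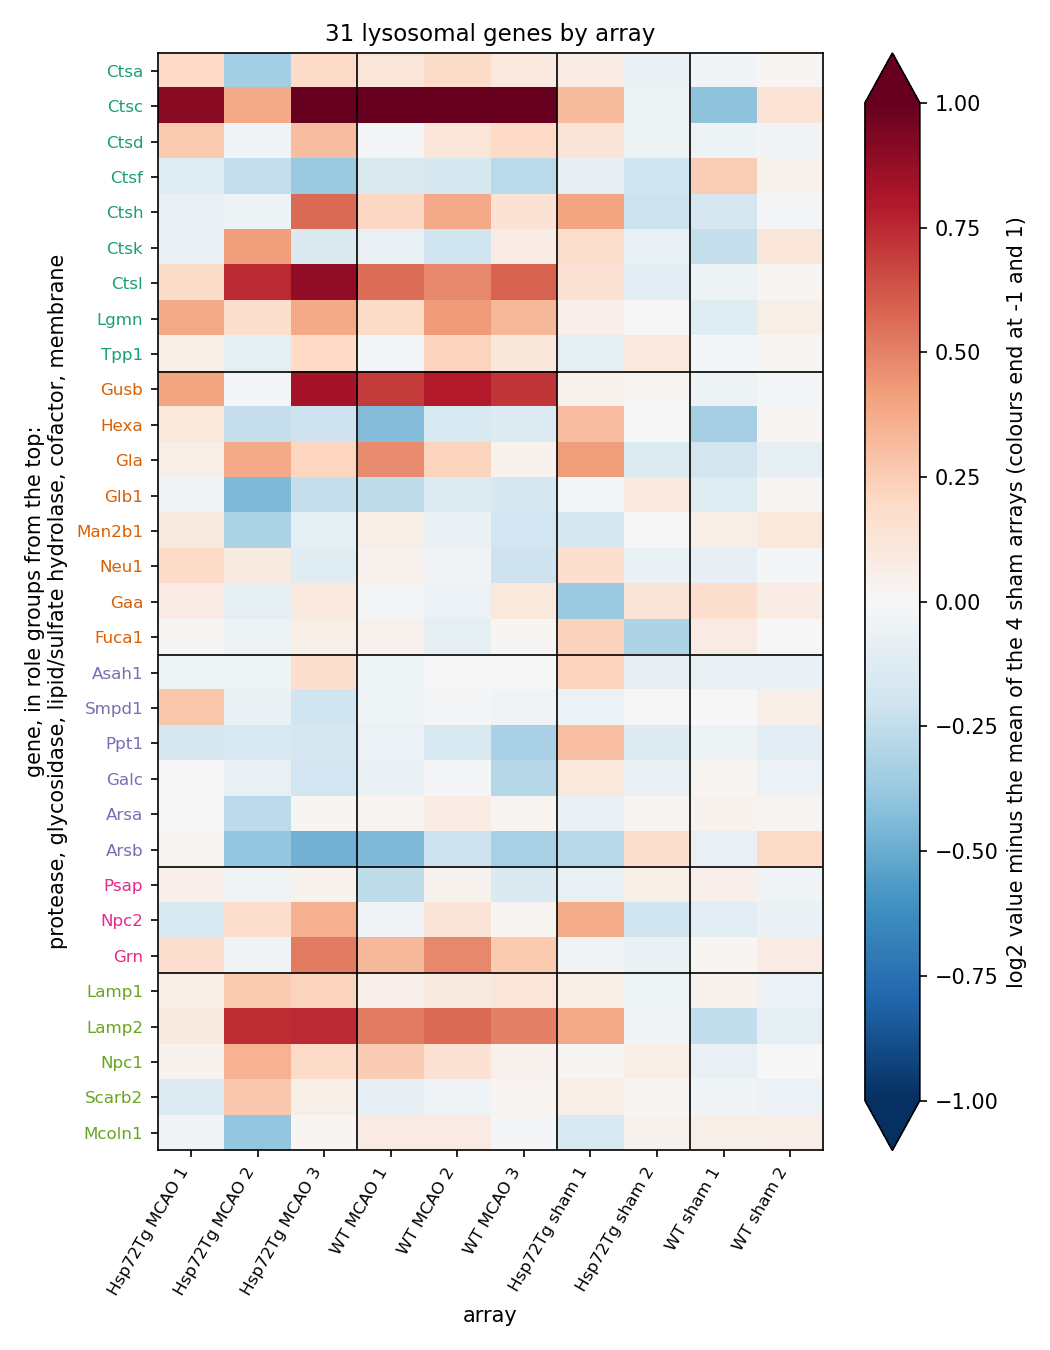
Heat map of 31 lysosomal genes (rows, by role) on 10 arrays (columns, in the order Hsp72Tg MCAO, WT MCAO, Hsp72Tg sham, WT sham). Colour gives the log2 value minus the mean of the 4 sham arrays; Ctsc, Ctsl, Gusb and Lamp2 stand out in red in the MCAO columns, unevenly in Hsp72Tg MCAO 1 and 2, and most other rows stay pale.

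Among the proteases, 8 of 9 changes were above 0, with a median of 0.14 and a range from -0.22 to 1.57. Ctsc is a dipeptidyl peptidase that activates the serine proteases stored in granules of neutrophils, mast cells and cytotoxic lymphocytes. Its log2 values were 8.90, 8.37 and 10.49 in Hsp72Tg MCAO, 9.66, 10.11 and 9.87 in WT MCAO, 8.31 and 7.94 in Hsp72Tg sham and 7.59 and 8.14 in WT sham. All MCAO arrays were above all sham arrays, but Hsp72Tg MCAO 2 only just, and the 3 Hsp72Tg MCAO arrays spread far more widely than the 3 WT MCAO arrays. The change was 1.57 (SE 0.35, limma adjusted p = 0.0594), a 2.98-fold difference with an interval from 1.74-fold to 5.1-fold. Ctsc had 3 probe sets, of which the other 2 were dim. Over all 3 the change ran from 0.14 to 1.57, the latter that of the probe set kept.

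Ctsl encodes cathepsin L, a cysteine endopeptidase of broad specificity. It read 11.68, 12.25 and 12.39 in Hsp72Tg MCAO, 12.06, 11.98 and 12.09 in WT MCAO, 11.64 and 11.39 in Hsp72Tg sham and 11.45 and 11.52 in WT sham. Again the groups did not overlap, and here it was Hsp72Tg MCAO 1 that lay next to the highest sham array. The change was 0.57 (SE 0.13, limma adjusted p = 0.0629), or 1.49-fold. The other of its 2 probe sets, dim at a mean of 5.31, gave 0.26. Lgmn encodes legumain, an asparaginyl endopeptidase that cleaves cathepsins during their maturation. This gene was chosen for description by array after its values were seen. Lgmn read 10.21, 10.00 and 10.21 in Hsp72Tg MCAO, 10.01, 10.25 and 10.16 in WT MCAO, 9.88 and 9.84 in Hsp72Tg sham and 9.71 and 9.89 in WT sham. Its arrays were likewise apart, by a small step, with a change of 0.31 (SE 0.08, limma adjusted p = 0.0834). These 3 proteases, 9.68% of the 31 genes, were the ones with no overlap between MCAO and sham arrays, against 6.6% of all genes.

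Ctsf, a cysteine cathepsin whose loss in humans causes a neuronal ceroid lipofuscinosis, was the 1 protease with a change below 0. Its arrays read 9.26, 9.15 and 9.01 in Hsp72Tg MCAO, 9.24, 9.22 and 9.12 in WT MCAO, 9.30 and 9.19 in Hsp72Tg sham and 9.63 and 9.42 in WT sham. Both WT sham arrays were above all others, while the Hsp72Tg sham arrays overlapped those after MCAO. The change was -0.22 (SE 0.08, limma adjusted p = 0.17). The other of its 2 probe sets, dim at a mean of 5.41, gave -0.02. The other proteases were cathepsin A (Ctsa), which also shields Glb1 and Neu1 from breakdown, the aspartic protease cathepsin D (Ctsd), the aminopeptidase cathepsin H (Ctsh), the collagen-cleaving cathepsin K (Ctsk) and the tripeptidyl peptidase Tpp1. Each of these spanned a range from 0.32 (Tpp1) to 0.78 (Ctsh) over the 10 arrays, and their MCAO and sham arrays overlapped.

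**Figure D2:**
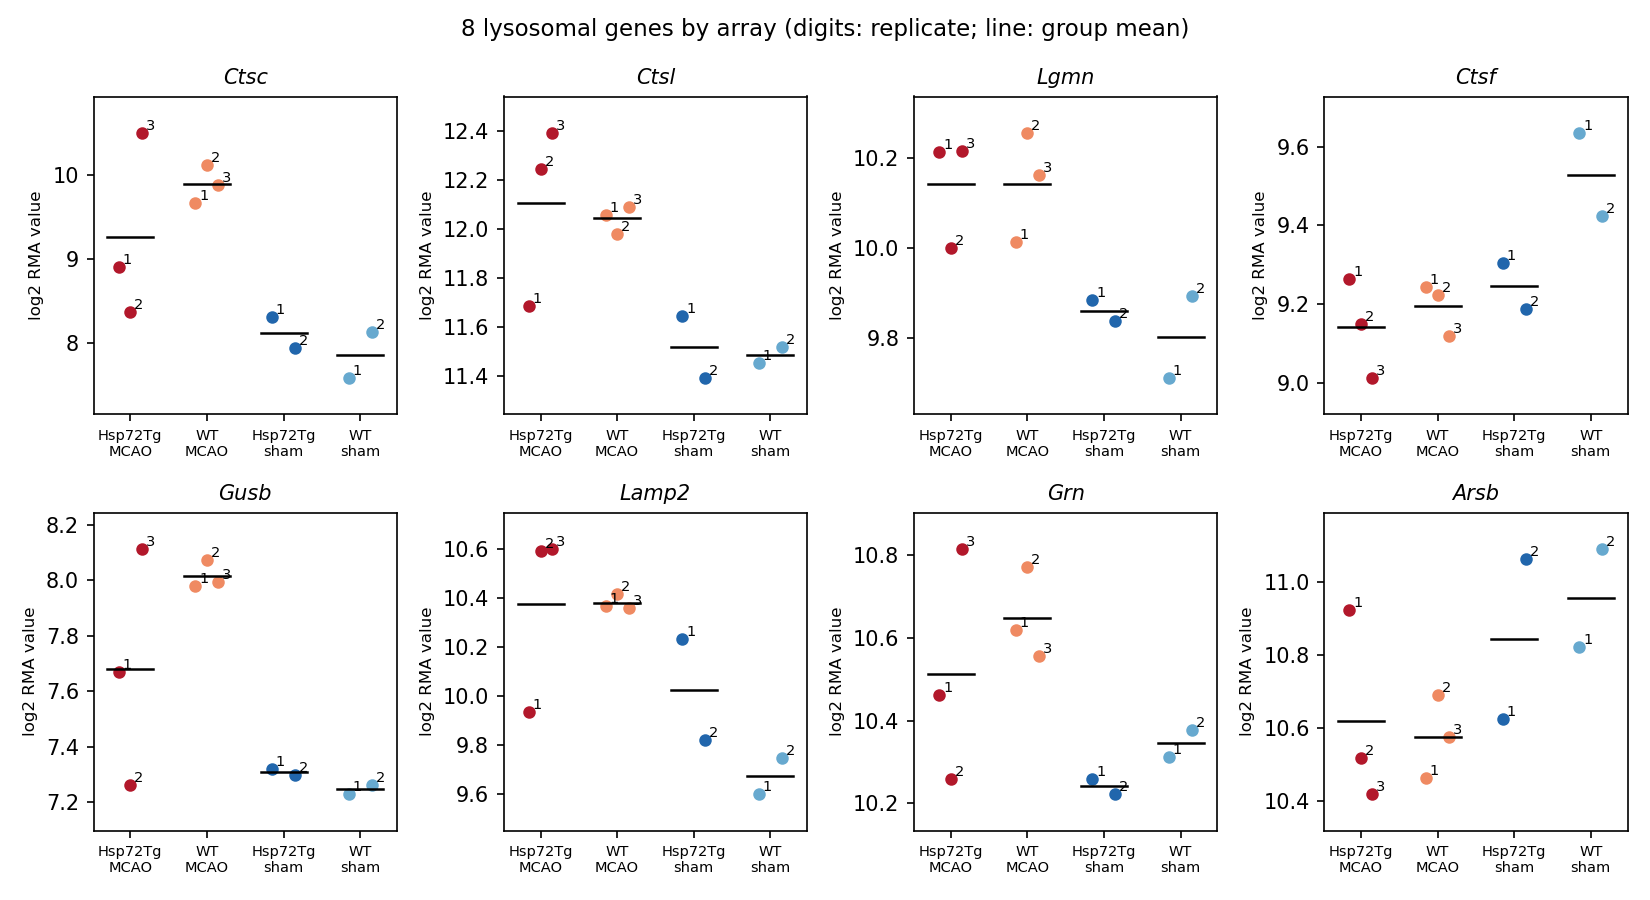
Log2 RMA values of 8 lysosomal genes on each array, with groups in the order Hsp72Tg MCAO, WT MCAO, Hsp72Tg sham and WT sham, digits for the replicate number and lines for group means. Hsp72Tg MCAO 2 lies low for Ctsc (8.37) and Gusb (7.26) and high for Ctsl (12.25) and Lamp2 (10.59), while Hsp72Tg MCAO 1 lies low for Ctsl (11.68) and Lamp2 (9.94).

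Among the glycosidases, 3 of 8 changes were above 0, with a median of -0.01 and a range from -0.21 to 0.57. Gusb, the beta-glucuronidase that trims glycosaminoglycans, read 7.67, 7.26 and 8.11 in Hsp72Tg MCAO, 7.98, 8.07 and 7.99 in WT MCAO, 7.32 and 7.30 in Hsp72Tg sham and 7.23 and 7.26 in WT sham. The 4 sham arrays and the 3 WT MCAO arrays were each tightly grouped, and Hsp72Tg MCAO 2 lay among the sham arrays. Its change was 0.57 (SE 0.14, limma adjusted p = 0.0737), or 1.48-fold, and its 2 probe sets gave 0.22 and 0.57. Gla, the alpha-galactosidase A that removes galactose from globosides, read 7.19, 7.50 and 7.34 in Hsp72Tg MCAO, 7.60, 7.35 and 7.16 in WT MCAO, 7.54 and 6.99 in Hsp72Tg sham and 6.94 and 7.03 in WT sham. The high Hsp72Tg sham 1 value overlapped the MCAO arrays, and the change of Gla was 0.23 (SE 0.13, limma adjusted p = 0.36). It was 0.37 without Hsp72Tg sham 1 and 0.09 without Hsp72Tg sham 2, and the 3 probe sets of Gla gave 0.02 to 0.23.

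Glb1, the beta-galactosidase that acts on gangliosides and keratan sulfate, was also chosen after its values were seen, as the glycosidase with the lowest change. It read 8.76, 8.34 and 8.56 in Hsp72Tg MCAO, 8.53, 8.65 and 8.63 in WT MCAO, 8.77 and 8.88 in Hsp72Tg sham and 8.67 and 8.81 in WT sham. Hsp72Tg MCAO 1 lay within the sham arrays and the other MCAO arrays below them, and the change was -0.21 (SE 0.09, limma adjusted p = 0.24). The other glycosidases were Hexa, the alpha subunit of beta-hexosaminidase A, the alpha-mannosidase Man2b1, the sialidase Neu1, the glycogen-degrading alpha-glucosidase Gaa and the alpha-fucosidase Fuca1. Their MCAO and sham arrays overlapped, and they spanned from 0.40 (Neu1) to 0.74 (Hexa) over the 10 arrays.

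The hydrolases of lipids and sulfate esters had 1 of 6 changes above 0, with a median of -0.06 and a range from -0.30 to 0.01. Arsb, the arylsulfatase B that desulfates dermatan sulfate, read 10.92, 10.52 and 10.42 in Hsp72Tg MCAO, 10.46, 10.69 and 10.57 in WT MCAO, 10.63 and 11.06 in Hsp72Tg sham and 10.82 and 11.09 in WT sham. Hsp72Tg MCAO 1 was high and Hsp72Tg sham 1 low, so the groups overlapped, and the change was -0.30 (SE 0.13, limma adjusted p = 0.23). Its 3 probe sets gave -0.34 to -0.29, and without Hsp72Tg sham 2 the change was -0.19. Ppt1, which removes palmitate from proteins, read 10.48, 10.49 and 10.47 in Hsp72Tg MCAO, 10.58, 10.49 and 10.32 in WT MCAO, 10.94 and 10.51 in Hsp72Tg sham and 10.59 and 10.52 in WT sham. The change of Ppt1 was -0.17 (SE 0.09, limma adjusted p = 0.36), with Hsp72Tg sham 1 as the highest array, and its 5 probe sets ran from -0.21 to 0.08. It was -0.06 without Hsp72Tg sham 1 and -0.27 without Hsp72Tg sham 2. The other 4 were acid ceramidase (Asah1), acid sphingomyelinase (Smpd1), galactosylceramidase (Galc) and arylsulfatase A (Arsa), the last 2 of which degrade myelin lipids. They overlapped between MCAO and sham arrays and spanned 0.30 (Asah1) to 0.47 (Smpd1).

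Of the lumenal cofactors, Grn encodes progranulin, a secreted precursor that lysosomes cut into granulins. It read 10.46, 10.26 and 10.81 in Hsp72Tg MCAO, 10.62, 10.77 and 10.56 in WT MCAO, 10.26 and 10.22 in Hsp72Tg sham and 10.31 and 10.38 in WT sham. Hsp72Tg MCAO 2 lay within the sham arrays and the other 5 MCAO arrays above them, and the change was 0.29 (SE 0.10, limma adjusted p = 0.18), with 0.27 to 0.30 over its 3 probe sets. Npc2, which hands cholesterol to Npc1, read 11.01, 11.33 and 11.52 in Hsp72Tg MCAO, 11.13, 11.29 and 11.19 in WT MCAO, 11.53 and 10.96 in Hsp72Tg sham and 11.06 and 11.10 in WT sham. The 2 Hsp72Tg sham arrays of Npc2 bracketed all others, its change was 0.08 (SE 0.13, limma adjusted p = 0.77), and its 4 probe sets ran from -0.33 to 0.13. Psap, the precursor of the saposins that present lipids to hydrolases, spanned 0.32 over the 10 arrays.

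Among the membrane proteins, 4 of 5 changes were above 0, with a median of 0.13 and a range from -0.04 to 0.53. Lamp2 encodes a heavily glycosylated protein that lines the membrane and serves autophagy. It read 9.94, 10.59 and 10.60 in Hsp72Tg MCAO, 10.37, 10.41 and 10.36 in WT MCAO, 10.23 and 9.82 in Hsp72Tg sham and 9.60 and 9.75 in WT sham. Hsp72Tg MCAO 1 lay between the 2 Hsp72Tg sham arrays, and the other 5 MCAO arrays were above every sham array. The change was 0.53 (SE 0.14, limma adjusted p = 0.0904), or 1.44-fold, and all 4 probe sets lay between 0.28 and 0.57. Npc1, the membrane protein that exports cholesterol, read 8.54, 8.86 and 8.70 in Hsp72Tg MCAO, 8.77, 8.65 and 8.55 in WT MCAO, 8.52 and 8.57 in Hsp72Tg sham and 8.43 and 8.51 in WT sham. Its change was 0.17 (SE 0.08, limma adjusted p = 0.28). Lamp1, the companion of Lamp2, the receptor Scarb2, which carries glucocerebrosidase to lysosomes, and the cation channel Mcoln1 spanned 0.32, 0.41 and 0.48 and overlapped between MCAO and sham arrays.

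**Figure D3:**
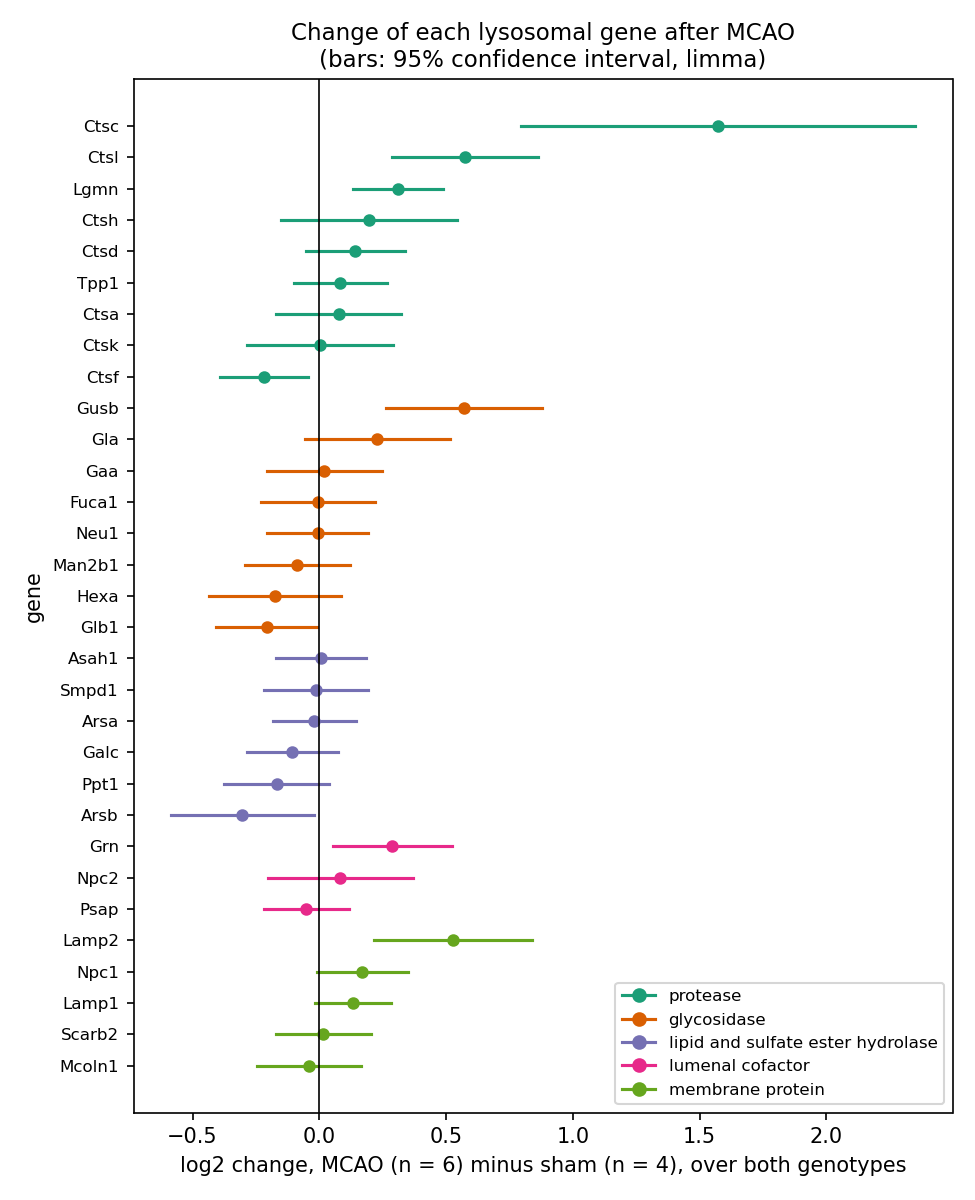
Log2 change after MCAO (6 arrays) minus sham (4 arrays) over both genotypes for 31 lysosomal genes, grouped by role, with 95% confidence intervals from limma. Values run from -0.30 (Arsb) to 1.57 (Ctsc), and the intervals of 23 genes lie within -0.5 and 0.5.

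Whether these genes passed differed with the arrays and the model options used. Without Hsp72Tg MCAO 1, 5 of the 31 genes passed over both genotypes, namely Ctsc at 1.66 (limma adjusted p = 0.0159), Ctsl at 0.68 (0.000706), Gusb at 0.57 (0.0336) and Lamp2 at 0.64 (0.00223) above sham, and Arsb at -0.38 (0.0493) below it. Without that array 12.4% of all genes passed. Without Hsp72Tg MCAO 2, Ctsc (1.79, limma adjusted p = 0.0337) and Gusb (0.68, limma adjusted p = 0.0196) passed, with 1.22% of all genes. Leaving out Hsp72Tg MCAO 3 let Ctsc pass at 1.26 (limma adjusted p = 0.0151), with 1.01% of all genes. The option of limma that gives weights to arrays set Hsp72Tg MCAO 1 at 0.465 and Hsp72Tg MCAO 2 at 0.487. With it Ctsc, Ctsl, Lgmn, Gusb and Lamp2 passed, as did 6.13% of all genes. The options trend and robust let Ctsl pass (limma adjusted p = 0.0432), with 1.52% of all genes, and a filter on dim probe sets let Ctsc pass (limma adjusted p = 0.0459), with 2.26%.

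The 2 arrays differed in which genes they held low. Hsp72Tg MCAO 2 was the lowest of the 6 MCAO arrays for 13 of the 31 genes, as for 28.7% of all genes, among them Ctsc, Lgmn, Gusb and Grn. Hsp72Tg MCAO 1 was the lowest for 6 of the 31, as for 20.1% of all genes, among them Ctsl and Lamp2. Against the Hsp72Tg sham mean, Ctsl stood at 0.17 on Hsp72Tg MCAO 1, 0.73 on Hsp72Tg MCAO 2 and 0.87 on Hsp72Tg MCAO 3, and Gusb at 0.36, -0.05 and 0.80 on the same arrays. Ctsc stood at 0.77, 0.25 and 2.36 there. The genes thus did not share 1 order over the 3 Hsp72Tg MCAO arrays.

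Markers of several cell types also differed between MCAO and sham arrays. The 11 of 12 measured markers of activated microglia and macrophages had a mean of 7.87, 8.54 and 8.94 on Hsp72Tg MCAO 1, 2 and 3, of 8.41 to 8.66 in WT MCAO, of 7.43 to 7.56 in Hsp72Tg sham and of 7.43 to 7.47 in WT sham. Over both genotypes 3 of these 11 passed (limma), all higher, against 1.46% of all genes. They were Lgals3 at 3.48 (SE 0.46), Cd14 at 3.36 (SE 0.56) and Tlr2 at 1.38 (SE 0.20). Of the 11 changes 9 were above 0, and the lowest was -0.22. At an unadjusted p under 0.05, 8 of the 11 were higher and 1 lower, against 19.1% of all genes. All 9 markers of resting microglia were measured, with means of 8.25, 7.08 and 7.55 on the Hsp72Tg MCAO arrays, 7.55 to 7.82 in WT MCAO, 8.07 to 8.39 in Hsp72Tg sham and 7.85 to 8.43 in WT sham. None of these 9 passed. Their changes over both genotypes ran from -1.67 to 0.15, with a median of -0.35 and 2 above 0. The lowest was that of P2ry12 (SE 0.37, limma adjusted p = 0.0586). The 7 of 9 measured neutrophil markers had means of 5.79, 7.80 and 6.92 on the Hsp72Tg MCAO arrays, 6.60 to 7.01 in WT MCAO, 5.92 to 6.11 in Hsp72Tg sham and 5.58 to 6.49 in WT sham. None of these 7 passed over both genotypes. Their changes ran from -0.11 to 2.49, with a median of 0.27 and 6 above 0. Hsp72Tg MCAO 2 was thus the highest of the MCAO arrays for the mean of the neutrophil markers and the lowest for that of resting microglia. Of the markers of other cell types, Gfap of 7 astrocyte markers passed, at 1.60 (SE 0.19). The 7 ran from -0.13 to 1.60, with 4 above 0. Pecam1 and Cldn5 of 6 endothelial markers passed, at 1.003 (SE 0.18) and 0.65 (SE 0.12). The 6 ran from -0.25 to 1.13, with 5 above 0. Mog of 5 measured oligodendrocyte markers passed, at -0.58 (SE 0.12). The 5 ran from -0.58 to 0.29, with 2 above 0. Their means were 11.75 to 11.83 in WT MCAO and 11.86 to 11.96 in WT sham, while those of Hsp72Tg MCAO and Hsp72Tg sham overlapped. None of the 8 neuronal markers passed, and all 8 stood below 0, from -0.38 to -0.04. The endothelial markers averaged 8.06 to 8.67 in Hsp72Tg MCAO, 8.04 to 8.46 in WT MCAO, 7.65 to 7.94 in Hsp72Tg sham and 7.48 to 7.67 in WT sham, and the astrocyte markers 11.77 to 11.92, 11.82 to 11.87, 11.56 to 11.57 and 11.56 to 11.65 in the same groups. The part of any of these cells in the lysosomal values was not tested. An array has no true 0, so no marker could be called absent.

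Within WT (3 MCAO arrays against 2 sham arrays) none of the 31 genes passed, as 0.055% of all genes did. At an unadjusted p under 0.05 there were 6 of 31 (19.4%), against 10.2% of all genes: Ctsc, Gusb, Lamp2, Ctsl and Lgmn above sham and Ctsf below. The changes were 2.02 (SE 0.49) for Ctsc, 0.77 (SE 0.19) for Gusb, 0.71 (SE 0.20) for Lamp2, 0.56 (SE 0.18) for Ctsl, 0.34 (SE 0.11) for Lgmn and -0.33 (SE 0.11) for Ctsf. The arrays did not overlap for 18 of 31 genes (58.1%), 14 above and 4 below sham, where 39% of all genes were so split. The median change of the 31 was 0.01. These SEs carry the spread of the Hsp72Tg arrays. With the WT arrays alone, Ctsc (limma adjusted p = 0.0017), Gusb (0.00234), Lamp2 (0.00454) and Ctsl (0.00988) passed, along with 5.25% of all genes. In the fit to all groups Ctsl and Lamp2 passed without Hsp72Tg MCAO 1 (2.54% of all genes), Ctsc and Gusb without Hsp72Tg MCAO 3 (0.665%), and with array weights 6 of the 31 genes passed (7.46%). WT sham 1, the array with cerebellar markers, was 1 of the 2 sham arrays, and leaving out each array in turn kept the WT change of Ctsc between 1.75 and 2.29, of Gusb between 0.74 and 0.79 and of Lamp2 between 0.63 and 0.78.

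Within Hsp72Tg (3 MCAO arrays against 2 sham arrays) none of the 31 genes passed, as 0.022% of all genes did. At an unadjusted p under 0.05 there were 3 of 31 (9.68%), against 12% of all genes: Ctsc at 1.13 (SE 0.49), Ctsl at 0.59 (SE 0.18) and Lgmn at 0.28 (SE 0.11). The arrays did not overlap for 5 of 31 genes (16.1%), against 21.9% of all genes: Ctsc, Ctsl and Lgmn above sham, and Glb1 at -0.28 (SE 0.13) and Ppt1 at -0.25 (SE 0.13) below. Gusb stood at 0.37 (SE 0.19) and Lamp2 at 0.35 (SE 0.20), and the median of the 31 was 0.03. Without Hsp72Tg MCAO 1, Ctsl at 0.80 (limma adjusted p = 0.00497) and Lamp2 at 0.57 (limma adjusted p = 0.0386) passed, with 6.49% of all genes. The change of Ctsc was 0.51 without Hsp72Tg MCAO 3, and that of Gusb was 0.58 without Hsp72Tg MCAO 2 and 0.15 without Hsp72Tg MCAO 3. The change of Lamp2 was 0.55 without Hsp72Tg sham 1 and 0.15 without Hsp72Tg sham 2, and that of Ppt1 was -0.03 and -0.46 without the same 2 arrays. Glb1 stood at -0.17 without Hsp72Tg MCAO 2.

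**Figure D4:**
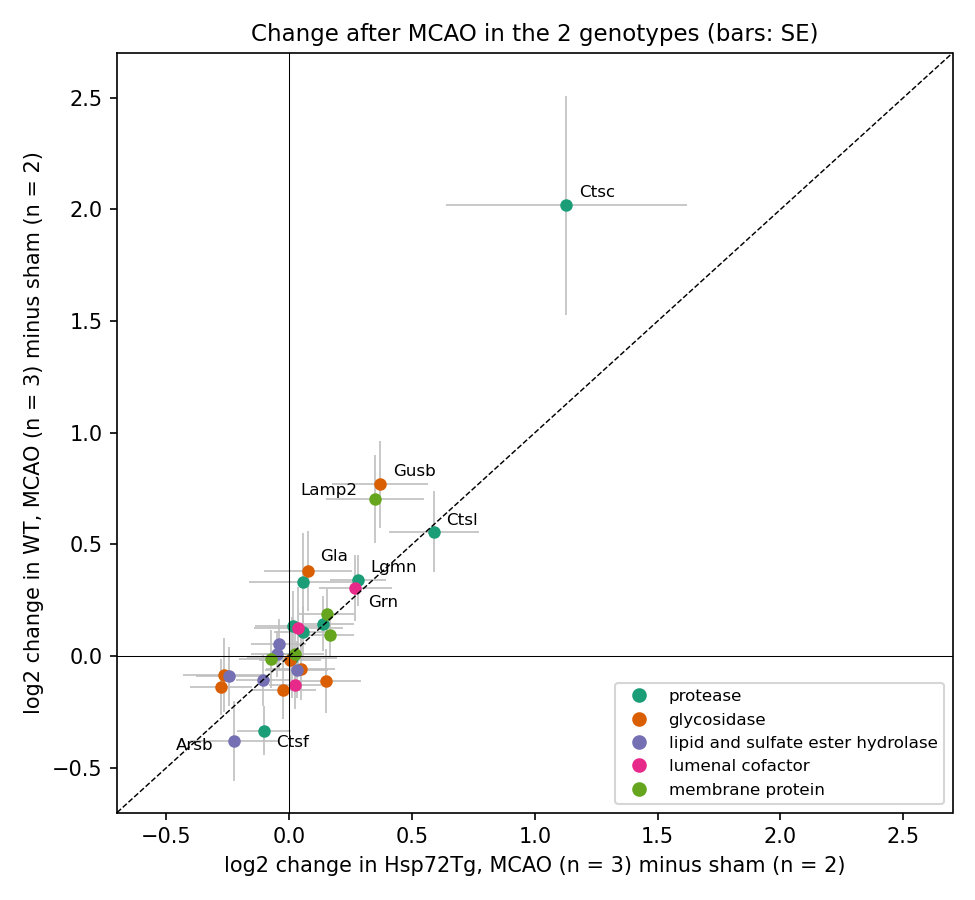
Log2 change after MCAO (3 arrays) minus sham (2 arrays) in Hsp72Tg (x axis) and in WT (y axis) for 31 lysosomal genes, coloured by role, with SE bars and the line of equal change. Ctsc (1.13 in Hsp72Tg, 2.02 in WT), Gusb (0.37 and 0.77) and Lamp2 (0.35 and 0.71) lie above the line and Ctsl (0.59 and 0.56) near it, with SE bars of Ctsc of 0.49 in each genotype.

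The difference between the changes in Hsp72Tg and in WT asks whether overexpressed Hsp72 altered the response. None of the 31 genes passed, 0% of all genes did, and at an unadjusted p under 0.05 there were 0 of the 31, against 1.75% of all genes. The smallest p belonged to Ctsf, at 0.23 (SE 0.16, interval -0.12 to 0.58), and to Gusb, at -0.40 (SE 0.27, interval -1.01 to 0.22). Ctsc had the value farthest from 0, at -0.89 with an interval from -2.44 to 0.67. The intervals of 13 of the 31 genes lay between -0.5 and 0.5, and those of the other 18 did not exclude a difference of 0.5 in size. The value of Gusb was -0.19 without Hsp72Tg MCAO 2 and -0.61 without Hsp72Tg MCAO 3, and that of Ctsf 0.13 without WT sham 1.

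After MCAO, Hsp72Tg was compared with WT directly (3 arrays each). None of the 31 genes passed and 0% of all genes did, and at an unadjusted p under 0.05 there were 0 of the 31, against 2.68% of all genes. Gusb was at -0.33 (SE 0.17, interval -0.72 to 0.05), with means of 7.68 ± 0.43 in Hsp72Tg and 8.01 ± 0.05 in WT (SD, n = 3 each). The value of Gusb was -0.12 without Hsp72Tg MCAO 2 and -0.55 without Hsp72Tg MCAO 3. Mcoln1 averaged 9.40 ± 0.22 in Hsp72Tg and 9.58 ± 0.06 in WT (SD, n = 3 each), a difference of -0.18 (SE 0.12, interval -0.44 to 0.08) that was -0.05 without Hsp72Tg MCAO 2. Arsa, at -0.13, was the 1 gene of 31 (3.23%) whose arrays did not overlap, against 7.44% of all genes. The intervals of 28 genes lay between -0.5 and 0.5.

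After sham surgery, Hsp72Tg against WT (2 arrays each) gave none of the 31 genes past the threshold, and 0% of all genes. At an unadjusted p under 0.05 there was Ctsf, 1 of 31, against 1.56% of all genes. Ctsf averaged 9.25 ± 0.08 in Hsp72Tg and 9.53 ± 0.15 in WT (SD, n = 2 each), a difference of -0.28 (SE 0.12, interval -0.55 to -0.01), which was -0.18 without WT sham 1. Hexa read 10.38 and 10.07 in Hsp72Tg and 9.74 and 10.10 in WT, a difference of 0.31 (SE 0.18, interval -0.09 to 0.71). Leaving out an Hsp72Tg sham array gave Hexa 0.15 (replicate 1) or 0.46 (replicate 2), and leaving out one of WT sham gave 0.13 (replicate 1) or 0.48 (replicate 2). The arrays did not overlap for 9 of 31 genes (29.0%), 4 above and 5 below WT, against 27% of all genes. This comparison and the change after MCAO in each genotype share their sham arrays.

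Other genes of the lysosome were read from a list of 69, of which 61 were measured. Over both genotypes 2 of the 61 passed, both higher, against 1.46% of all genes, and the median of the 61 was 0.01. At an unadjusted p under 0.05, 11 of the 61 were higher and 2 lower, against 19.1% of all genes. Cd68, a membrane glycoprotein of macrophage lysosomes, read 8.18, 8.16 and 9.11 in Hsp72Tg MCAO, 8.75, 8.84 and 8.81 in WT MCAO, 7.32 and 7.13 in Hsp72Tg sham and 7.23 and 7.48 in WT sham. All MCAO arrays lay above all sham arrays, and it rose by 1.35 (SE 0.18, limma adjusted p = 0.0131). Ctsz, a carboxypeptidase of the cathepsin family, read 10.57, 10.66 and 11.24 in Hsp72Tg MCAO, 10.88, 11.10 and 10.97 in WT MCAO, 10.26 and 10.03 in Hsp72Tg sham and 9.95 and 10.21 in WT sham, again with no overlap. It rose by 0.79 (SE 0.13, limma adjusted p = 0.0287). None of the 11 subunits of the proton pump passed, with changes from -0.21 (Atp6v0b) to 0.09. Among sorting genes Igf2r, the receptor that brings enzymes tagged with mannose 6-phosphate to lysosomes, stood at 0.29 (SE 0.08, limma adjusted p = 0.10). Acp5, a tartrate-resistant acid phosphatase, stood at 0.25 (SE 0.10, limma adjusted p = 0.22).

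Of the 5 measured transcription factor genes on that list none passed. Tfe3 stood at 0.51 (SE 0.16, limma adjusted p = 0.13) over both genotypes. Among the 31 genes, the 11 with CACGTG in a promoter window had a median change of 0.08, from -0.22 to 0.57, with 7 above 0. The 17 without it had a median of 0.00, from -0.30 to 1.57, with 8 above 0. Ctsl and Lgmn, whose matching windows, printed above, lie inside the gene, belong to the first set. Ctsc, Gusb, Lamp2 and Grn belong to the second.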

How the data were processed

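The deposited table holds log2 values made with RMA (background correction, normalization between arrays, summary of probes), per the submitters' processing notes; its version is not given in the sources used here, nor are its settings. Of 45101 probe sets, 64 controls were left out, 34945 had 1 symbol in the platform annotation, 932 several and 9160 were unlisted. Through Entrez identifiers 34741 matched the RefSeq table (GRCm38.p6), and 0 symbols changed. All 10 arrays were fitted with limma 3.58.1 in R 4.3.3 (group means, 6 residual degrees of freedom, prior 3.72), for 6 comparisons, two-sided, on 18193 genes. The fit was tested on simulated data. No background flag was applied, and the number of arrays limits the precision.

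The genes and lists were chosen with earlier results of these data known. Given by array were genes that passed and, per role, the 2 with the largest absolute change over both genotypes; for the other comparisons, the 2 with the smallest p in each genotype comparison; other lysosome genes that passed or, per kind, the largest. Alternatives were a replicate block, trend and robust eBayes, array weights, quantile normalization, centring, the mean over probe sets, each probe set, a dim filter, only the compared arrays, and leaving out each array. Summaries used Python 3.11.15 and pandas 2.3.3.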

Additional observations from a re-analysis of the deposited data

How the results depend on the processing

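Whether genes passed depended on the processing. Over both genotypes 0 of 31 genes passed in the fit as reported, 1 with trend and robust eBayes, 5 with array weights, 1 with the dim filter, and 0 to 5 when each array was left out. In WT it was 0 as reported, 6 with array weights, 4 with only the WT arrays, and 0 to 2 when each array was left out, and in Hsp72Tg 0 as reported and 0 to 2 when each was left out. The 3 genotype comparisons gave 0 under every alternative run. The cause was not tested. Of 795 alternative values for 45 results of single genes, 8 changed sign, all of Npc2 and Gla. Over single probe sets, the change over both genotypes took both signs for 8 of the 22 genes with several, Ppt1 and Npc2 among them. Npc2 over both genotypes was -0.0223 with the mean over probe sets and -0.0597 without Hsp72Tg sham 2 (-0.0597 to 0.23 as each array was left out). In Hsp72Tg it was -0.0155 with the replicate block, -0.0898 with the mean over probe sets, -0.25 without Hsp72Tg sham 2 and -0.0759 without Hsp72Tg MCAO 3 (-0.25 to 0.32 as each array was left out). Gla in Hsp72Tg was -0.20 without Hsp72Tg sham 2 and -0.0024 without Hsp72Tg MCAO 2 (-0.20 to 0.36 as each array was left out). The cause of these was not tested either. The labels do not say that replicate numbers pair the samples. Deviations from group means correlated between -0.156 and 0.249 for same-numbered arrays. With 2 arrays in a sham group the deviations mirror each other, so these correlations cannot decide whether samples were paired. With the replicate number as a block 0 of 31 genes passed over both genotypes, with Ctsc at 1.27 and Ctsl at 0.49, and 19 of all genes passed against 266 without it. The median change of the 31 genes lay between -0.0021 and 0.11 in the MCAO comparisons and their alternatives, below 0 only in Hsp72Tg without Hsp72Tg sham 2 (0.03 as reported). The precision is set by 2 or 3 arrays a group.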
